A study of Mus musculus with 19 samples.

Results

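The mitosis genes described here are 35 genes that act in the last part of the cell cycle, from entry into mitosis to the separation of the daughter cells. They were chosen by symbol, and the identifiers of all 35 were found among the 35274 genes listed in the deposited tables. All 35 passed the filter on low counts that left 16387 genes for testing. RNA was measured in mouse liver cells that the labels call hepatocytes, from animals with the genotype OPN-CreERT2;Rosa26R-mT/mG. GREEN samples were from livers with chronic injury and are labelled DR-derived, an abbreviation left unexplained there. RED samples were from livers with chronic injury and are labelled native and tdTomato. CTL samples were native cells of healthy livers.

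All 3 groups carried the same alleles: a tamoxifen-inducible Cre recombinase driven by the osteopontin promoter, which is active in bile duct epithelium, and the mT/mG reporter, which turns from red to green fluorescence in a cell in which Cre has acted and in its descendants. Each group had 5 samples, and each sample entered with 1 library, 2 per group from experiment 1, made with a stranded poly(A) kit, and 3 per group from experiment 2, made with a kit that removes ribosomal RNA. The labels do not name the agent of the injury or spell out its length or the age of the animals, although the library names of GREEN and RED hold an unexplained 16w, and they do not say which samples came from the same animal. Total estimated counts were 26163553 to 34216824 in the libraries of experiment 1 and 38061859 to 44177627 in those of experiment 2, of which the mitosis genes took 262 to 14414 per library.

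Adult hepatocytes rarely divide, and liver injury is known to bring many of them back into the cell cycle. The genes of mitosis are switched on together late in the cycle. In resting cells the DREAM complex, built on a core called MuvB, binds the CHR element of their promoters and keeps them off; in dividing cells the same core, joined by B-Myb (the product of Mybl2) and by Foxm1, turns them on. Their RNA is therefore widely read as a mark of cells in or near division.

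The label of the samples was checked against 10 hepatocyte markers, among them Apoa1, Serpina1c, Cps1 and Pck1. None was at 0 in any library, and their summed level was 35100 to 85500 CPM (counts per 1000000 of the scaled library total) in GREEN, 88800 to 124000 CPM in RED and 118000 to 173000 CPM in CTL. Markers of other liver cells were present too, and are given after the mitosis genes.

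The mitosis genes were higher in both populations of injured liver than in healthy liver. In GREEN versus CTL 32 of the 35 genes rose and none fell, where 29.5% of all genes tested rose and 18.6% fell, and their median log2 fold change was 2.64 against 0.11 over all genes tested. In RED versus CTL 33 rose and none fell, where 14.2% of all genes tested rose and 1.99% fell, and the median was 3.06 against 0.05. By limma-voom on the same libraries fewer passed, 17 in GREEN versus CTL, where 28.2% of all genes tested rose, and 10 in RED versus CTL, where 11.9% did. GREEN and RED share the CTL samples in these comparisons. Some members were scarce in CTL, such as Bub1 with 3, 4, 8, 0 and 4 counts in CTL 1 to 5. A gene as scarce as this passes the filter through GREEN and RED alone, so it could hardly have fallen. Without the filter 32 rose in GREEN versus CTL and 33 in RED versus CTL, where 20.1% and 8.80% of all genes tested rose. Between GREEN and RED 0 of the 35 genes passed in either direction, where 12.9% of all genes tested did. In bulk samples such as these, fewer cells of a type and less RNA per cell cannot be told apart.

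**Figure D1:**
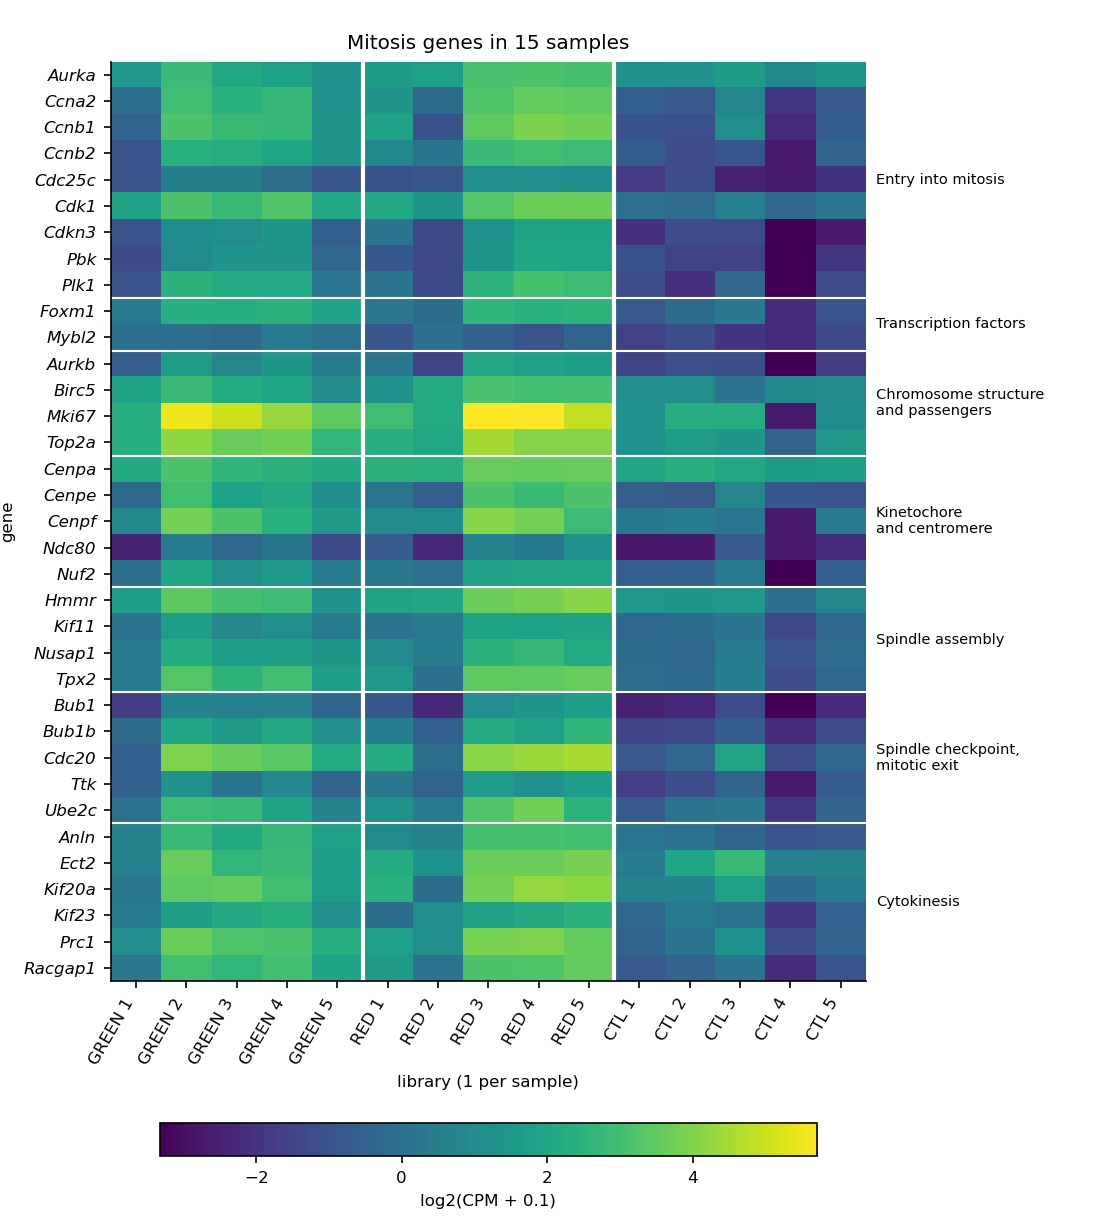
Level of each of the 35 mitosis genes (rows, grouped by role) in the 15 samples (columns, GREEN, RED and CTL from left to right), as log2(CPM + 0.1). GREEN 2 to GREEN 4 and RED 3 to RED 5 are bright in nearly every row, GREEN 1 and RED 2 are close to the CTL samples, and CTL 4 is the darkest column, with 6 genes at 0 counts.

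The samples of each injured group were far apart. Over the 35 genes the mean log2 CPM was 0.12, 2.51, 2.07, 2.12 and 1.03 in GREEN 1 to 5, 0.88, 0.10, 2.75, 2.81 and 2.81 in RED 1 to 5, and -0.57, -0.33, 0.19, -2.01 and -0.59 in CTL 1 to 5. The group means were 1.57 ± 0.98 in GREEN, 1.87 ± 1.29 in RED and -0.66 ± 0.81 in CTL (SD, n = 5 each). GREEN 1 and RED 2 lay below CTL 3, the highest CTL sample, while the other GREEN and RED samples lay above every CTL sample. RED 3, RED 4 and RED 5 were close together and far above RED 1 and RED 2.

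**Figure D2:**
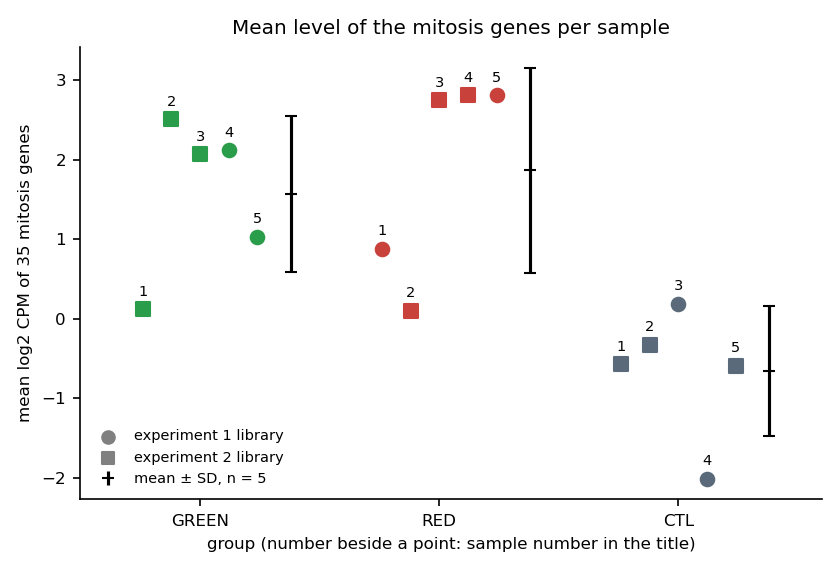
Mean log2 CPM of the 35 mitosis genes in each sample (points, numbered by sample, circles for experiment 1 and squares for experiment 2), with the mean ± SD of each group of 5. GREEN 1 (0.12) and RED 2 (0.10) sit level with CTL 3 (0.19), and RED 3, RED 4 and RED 5 (2.75 to 2.81) are the highest points.

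Counted gene by gene, 35 of the 35 mitosis genes were above the highest CTL sample in GREEN 2, 34 in GREEN 3, 34 in GREEN 4, 27 in GREEN 5 and 15 in GREEN 1. In RED 3, RED 4 and RED 5 all 35 were above it, in RED 1 28 and in RED 2 16. Over all genes tested the share above the highest CTL sample was 30.8% to 40.4% in the GREEN samples and 26.4% to 34.1% in the RED samples. The extremes fell on the same samples for most genes: GREEN 1 was the lowest GREEN sample for 30 of the 35 genes, RED 2 the lowest RED sample for 27, and CTL 4 the lowest CTL sample for 31. The 5 samples of a group had no overlap with the 5 CTL samples for 13 genes in GREEN, where 21.0% of all genes tested lay above CTL without overlap, and for 13 genes in RED, where 10.6% did.

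The promoters of the listed genes were searched for the elements named above. Since the genes were listed for their role in mitosis, the shares describe the list and say nothing about these samples. Of the 35 genes, 28 had a window in a RefSeq promoter table of build GRCm38.p6, running from 250 bases before to 50 bases after the start of the transcript. The CHR was spelled TTTGAA or TTCGAA and the CCAAT box CCAAT, on either strand. From 100 bases before to 50 after the start, 21 of the 28 genes (75.0%) held a CHR, against 9.9% of 27025 genes with a window. A CCAAT box was found in the whole window of 22 of the 28 genes (78.6%), against 41.1% of all, and 2 or more CCAAT boxes in 15 (53.6%), against 13.3%. Both a CHR near the start and 2 or more CCAAT boxes were found in 13 of the 28 (46.4%), against 1.3% of all genes. The CDE, an element described beside the CHR in some of these promoters and spelled GGCGG here, was found in the whole window of 26 of the 28 (92.9%), against 51.2% of all.

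The 120 bases before the start are shown for 4 genes that hold a CHR there and for Mybl2, the gene with the least common pattern over samples, on the strand of the gene and with each CHR and CCAAT box in capitals (ATTGG and TTCAAA are the CCAAT box and a CHR read on the other strand).
Cdk1, chr10:69352913-69353032, minus strand: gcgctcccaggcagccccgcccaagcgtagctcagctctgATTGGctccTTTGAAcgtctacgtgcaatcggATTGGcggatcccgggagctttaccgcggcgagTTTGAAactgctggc
Cdc20, chr4:118437344-118437463, minus strand: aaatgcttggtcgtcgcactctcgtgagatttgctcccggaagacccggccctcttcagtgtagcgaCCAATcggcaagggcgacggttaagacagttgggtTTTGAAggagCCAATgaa
Top2a, chr11:99024190-99024309, minus strand: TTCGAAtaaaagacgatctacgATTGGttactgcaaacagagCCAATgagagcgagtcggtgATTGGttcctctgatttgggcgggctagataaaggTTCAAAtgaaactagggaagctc
Kif11, chr19:37376262-37376381, plus strand: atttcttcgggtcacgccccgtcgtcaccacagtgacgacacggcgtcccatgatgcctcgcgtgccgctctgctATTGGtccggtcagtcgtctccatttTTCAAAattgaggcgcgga
Mybl2, chr2:163054515-163054634, plus strand: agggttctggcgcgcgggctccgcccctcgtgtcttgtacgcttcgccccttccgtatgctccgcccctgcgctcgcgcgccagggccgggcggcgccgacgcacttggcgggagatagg
Counted from the start of the transcript, the Cdk1 stretch has CHR letters at -71 to -66 and at -15 to -10, and CCAAT boxes at -80 to -76 and at -48 to -44. In Cdc20 the CHR is at -18 to -13, between CCAAT boxes at -53 to -49 and at -8 to -4. The CHR nearer to the start is at -23 to -18 in Top2a, and the one of Kif11 is at -19 to -14. Neither a CHR nor a CCAAT box was in the windows of Mybl2, Birc5, Nuf2 and Nusap1. Of these, Birc5, Nuf2 and Nusap1 followed the other members more closely (r = 0.83, 0.93 and 0.99 over 15 libraries) than Mybl2 (0.61). A link between motif and pattern was not tested. A match is a run of letters, and binding was not measured.

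The first group of genes, 9 that promote or regulate entry into mitosis, had 8 that rose in GREEN versus CTL (median log2 fold change 2.87) and 9 that rose in RED versus CTL (median 3.44). Cdk1, the kinase that starts mitosis (ENSMUSG00000019942.13, chromosome 10, 69335146 to 69352938 on the minus strand of GRCm38, protein-coding), had 3.54, 8.98, 6.70, 9.56 and 4.03 CPM in GREEN 1 to 5, 4.16, 2.47, 9.80, 12.7 and 12.8 CPM in RED 1 to 5, and 0.961, 0.836, 1.42, 0.741 and 1.06 CPM in CTL 1 to 5. Every GREEN and every RED sample was above every CTL sample. Its log2 fold change was 2.70 (standard error 0.47, adjusted p = 4.6e-04) in GREEN versus CTL and 3.06 (standard error 0.47, adjusted p = 6.3e-04) in RED versus CTL. Of the 35 genes Cdk1 had the smallest adjusted p in both comparisons, by edgeR's quasi-likelihood test with Benjamini-Hochberg adjustment over all genes tested, as for every adjusted p here.

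The cyclins that activate Cdk1 moved in the same direction. Ccnb1, the main cyclin of mitotic entry, had 0.641, 9.04, 6.68, 6.35 and 2.47 CPM in GREEN 1 to 5, 3.56, 0.389, 11.1, 15.2 and 13.6 CPM in RED 1 to 5, and 0.390, 0.366, 2.09, 0.114 and 0.531 CPM in CTL 1 to 5. GREEN 1 and RED 2 were within the CTL range, which CTL 3 stretched upward. It rose by 2.92 (standard error 0.95, adjusted p = 0.0208) in GREEN versus CTL and by 3.71 (standard error 0.97, adjusted p = 0.0156) in RED versus CTL. Ccnb2, the second B-type cyclin, averaged 3.36 ± 1.94 CPM in GREEN, 4.94 ± 3.26 CPM in RED and 0.406 ± 0.231 CPM in CTL (SD, n = 5 each), and the RED samples did not overlap the CTL samples. Ccna2, the A-type cyclin of S phase and early mitosis, averaged 4.51 ± 2.86, 7.09 ± 5.12 and 0.661 ± 0.553 CPM in GREEN, RED and CTL.

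Among the kinases and phosphatases that act on Cdk1 or beside it, Plk1, the polo-like kinase, had the highest fold changes of all 35 genes. Plk1 had 0.393, 5.55, 4.65, 4.51 and 1.06 CPM in GREEN 1 to 5, 1.02, 0.312, 5.82, 8.31 and 7.12 CPM in RED 1 to 5, and 0.338, 0.131, 0.709, 0 and 0.325 CPM in CTL 1 to 5. A count of 0 in CTL 4 allows up to 3 counts, which are 0.171 CPM in that library, for counting error only. Its log2 fold change was 3.39 (standard error 1.00) in GREEN versus CTL and 3.87 (standard error 1.01) in RED versus CTL. Cdc25c, the phosphatase that releases Cdk1 from inhibition, was low everywhere, at 0.864 ± 0.454 CPM in GREEN, 1.40 ± 0.916 CPM in RED and 0.161 ± 0.112 CPM in CTL, and neither injured group overlapped CTL. Cdkn3, a phosphatase of Cdk proteins, and Pbk, a kinase active in mitosis, rose by 3.11 and 2.87 in GREEN versus CTL and by 3.61 and 3.33 in RED versus CTL.

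Aurka, the kinase of the maturing centrosome, was the exception among the entry genes. It had 2.73, 7.08, 4.04, 3.39 and 2.28 CPM in GREEN 1 to 5, 2.93, 3.30, 8.55, 8.93 and 8.33 CPM in RED 1 to 5, and 2.23, 2.27, 2.95, 1.77 and 2.60 CPM in CTL 1 to 5. GREEN 1, GREEN 5 and RED 1 were within the CTL range. Its log2 fold change was 0.69 (standard error 0.37, adjusted p = 0.138) in GREEN versus CTL, which did not pass, and 1.42 (standard error 0.37, adjusted p = 0.0154) in RED versus CTL.

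Of the transcription factors of the module, Foxm1, a forkhead factor that binds MuvB late in the cycle, had 1.18, 5.00, 5.09, 5.52 and 3.53 CPM in GREEN 1 to 5, 1.10, 0.805, 6.04, 5.30 and 5.80 CPM in RED 1 to 5, and 0.494, 0.810, 1.14, 0.114 and 0.413 CPM in CTL 1 to 5. Every GREEN sample was above every CTL sample, whereas RED 1 and RED 2 were within the CTL range. It rose by 2.75 (standard error 0.68, adjusted p = 0.00458) in GREEN versus CTL and by 2.66 (standard error 0.68, adjusted p = 0.0132) in RED versus CTL.

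Mybl2 (ENSMUSG00000017861.11, chromosome 2, 163054687 to 163084688 on the plus strand, protein-coding), which encodes B-Myb, had another pattern. It had 0.889, 0.857, 0.775, 1.18 and 0.968 CPM in GREEN 1 to 5, 0.424, 0.883, 0.575, 0.406 and 0.661 CPM in RED 1 to 5, and 0.234, 0.340, 0.157, 0.114 and 0.295 CPM in CTL 1 to 5. Neither injured group overlapped CTL, and GREEN 1 and RED 2, which were low for most other members, were not low for Mybl2. Counts were few, 10, 34, 24, 17 and 17 in RED 1 to 5 and 9, 13, 4, 2 and 10 in CTL 1 to 5. With all 19 libraries scaled together, RED 2 had 0.867 CPM in experiment 2. In experiment 1 RED 2 had 0.486 CPM, beside 0.396 and 0.522 CPM in RED 3 and RED 4. The part of counting error in the pattern was not tested. Mybl2 rose by 2.01 (standard error 0.35, adjusted p = 4.9e-04) in GREEN versus CTL and by 1.34 (standard error 0.35, adjusted p = 0.0158) in RED versus CTL. In GREEN versus RED it had the highest fitted value of the 35 genes, 0.68 (standard error 0.33), and did not pass (adjusted p = 0.173).

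All 4 genes of chromosome structure and the chromosomal passenger complex rose in both comparisons, with median log2 fold changes of 2.59 in GREEN versus CTL and 2.89 in RED versus CTL. Mki67, whose product Ki-67 coats mitotic chromosomes and is used as a stain for cycling cells (ENSMUSG00000031004.8, chromosome 7, 135689784 to 135716361 on the minus strand, protein-coding), had 4.86, 44.8, 32.5, 19.8 and 11.0 CPM in GREEN 1 to 5, 7.51, 4.52, 51.6, 52.2 and 29.5 CPM in RED 1 to 5, and 2.31, 4.81, 4.76, 0.0570 and 2.01 CPM in CTL 1 to 5. GREEN 1 lay just above CTL 2 and RED 2 below it, while RED 3 and RED 4, followed by GREEN 2, were the highest samples. Its log2 fold change was 2.95 (standard error 0.83, adjusted p = 0.0100) in GREEN versus CTL and 3.30 (standard error 0.85, adjusted p = 0.0138) in RED versus CTL.

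Top2a, the topoisomerase that untangles sister chromatids, had 4.92, 18.1, 12.1, 13.8 and 6.27 CPM in GREEN 1 to 5, 5.01, 4.02, 22.4, 16.1 and 16.4 CPM in RED 1 to 5, and 2.42, 3.03, 2.56, 0.627 and 2.83 CPM in CTL 1 to 5. Neither injured group overlapped CTL. It rose by 2.29 (standard error 0.52, adjusted p = 0.00298) in GREEN versus CTL and by 2.49 (standard error 0.53, adjusted p = 0.00429) in RED versus CTL. Birc5 (survivin) and Aurkb, both of the passenger complex, rose by different amounts, 1.23 (standard error 0.35) and 2.88 (standard error 0.76) in GREEN versus CTL, and 1.84 (standard error 0.35) and 3.29 (standard error 0.77) in RED versus CTL.

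Of the 5 kinetochore and centromere genes, 4 rose in GREEN versus CTL and 4 in RED versus CTL, and the gene that did not pass was a different one in each. Cenpa, the histone H3 variant that marks centromeres, had 4.38, 8.82, 6.09, 5.46 and 4.33 CPM in GREEN 1 to 5, 5.52, 5.17, 12.2, 11.8 and 12.1 CPM in RED 1 to 5, and 3.85, 5.09, 4.17, 2.91 and 3.16 CPM in CTL 1 to 5. RED did not overlap CTL, and GREEN 1 and GREEN 5 were below CTL 2. Cenpa had the smallest fold changes of all 35 genes in both comparisons, 0.59 (standard error 0.29, adjusted p = 0.109) in GREEN versus CTL and 1.29 (standard error 0.30, adjusted p = 0.00708) in RED versus CTL.

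Nuf2, a subunit of the NDC80 complex that holds microtubules at the kinetochore, had a log2 fold change of 1.86 (standard error 0.69, adjusted p = 0.0379) in GREEN versus CTL and 2.13 (standard error 0.69, adjusted p = 0.0509) in RED versus CTL, and the second missed the threshold of 0.05. Its partner Ndc80 was one of the scarcest members, at 0.674 ± 0.478 CPM in GREEN, 1.12 ± 0.857 CPM in RED and 0.150 ± 0.182 CPM in CTL, with log2 fold changes of 2.31 and 2.97. Cenpf and Cenpe, a large kinetochore protein and a kinetochore motor, rose by 2.75 and 2.42 in GREEN versus CTL and by 3.08 and 2.94 in RED versus CTL. The Cenpf samples of both injured groups were above every CTL sample.

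All 4 spindle assembly genes rose in both comparisons (median 1.72 in GREEN versus CTL and 2.28 in RED versus CTL). Tpx2, which carries the kinase Aurka to the spindle, averaged 5.49 ± 3.36 CPM in GREEN, 7.57 ± 5.32 CPM in RED and 0.809 ± 0.371 CPM in CTL, with log2 fold changes of 2.75 (standard error 0.70) and 3.21 (standard error 0.72). Kif11, the kinesin that pushes the spindle poles apart, rose by 1.36 (standard error 0.48) in GREEN versus CTL and by 1.86 (standard error 0.48) in RED versus CTL. Nusap1 and Hmmr, both spindle microtubule proteins, rose by 1.90 and 1.54 in GREEN versus CTL and by 2.29 and 2.28 in RED versus CTL.

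The 5 genes of the spindle checkpoint and of mitotic exit also rose in both comparisons (median 2.98 in GREEN versus CTL and 3.37 in RED versus CTL). Cdc20, the activator of the ligase that ends mitosis and the target of the checkpoint (ENSMUSG00000006398.15, chromosome 4), had 0.600, 15.4, 12.4, 10.2 and 4.50 CPM in GREEN 1 to 5, 4.58, 0.857, 17.7, 20.2 and 23.5 CPM in RED 1 to 5, and 0.468, 0.732, 3.74, 0.342 and 0.738 CPM in CTL 1 to 5. CTL 3 was far above the other CTL samples. GREEN 1 was within the range of those, and RED 2 was just above it. Bub1b, the checkpoint protein BubR1, had 0.765, 3.88, 2.79, 4.30 and 2.14 CPM in GREEN 1 to 5, 1.40, 0.597, 4.57, 3.51 and 5.87 CPM in RED 1 to 5, and 0.260, 0.287, 0.512, 0.114 and 0.325 CPM in CTL 1 to 5, with no overlap between either injured group and CTL.

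Bub1b rose by 3.16 (standard error 0.64, adjusted p = 0.00129) in GREEN versus CTL and by 3.37 (standard error 0.64, adjusted p = 0.00210) in RED versus CTL, and Cdc20, with its wider spread, by 2.98 (standard error 0.97, adjusted p = 0.0216) and 3.58 (standard error 0.99, adjusted p = 0.0213). The checkpoint kinases Bub1 and Ttk rose by 3.06 and 1.82 in GREEN versus CTL and by 3.71 and 2.51 in RED versus CTL. Ube2c, the ubiquitin-conjugating enzyme that works with the ligase, averaged 4.04 ± 2.96 CPM in GREEN, 6.39 ± 5.04 CPM in RED and 0.693 ± 0.383 CPM in CTL.

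Of the 6 cytokinesis genes, 5 rose in each comparison (median 2.36 in GREEN versus CTL and 2.84 in RED versus CTL), and Ect2 did not pass in either. Ect2, the exchange factor that activates RhoA at the cleavage site, had 1.51, 12.2, 6.17, 6.66 and 3.02 CPM in GREEN 1 to 5, 4.63, 2.31, 12.8, 12.6 and 14.4 CPM in RED 1 to 5, and 1.30, 3.92, 6.85, 1.43 and 1.53 CPM in CTL 1 to 5. CTL 2 and CTL 3 overlapped with GREEN and with RED. Its log2 fold change was 1.01 (standard error 0.66, adjusted p = 0.222) in GREEN versus CTL and 1.66 (standard error 0.66, adjusted p = 0.116) in RED versus CTL.

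Its partner Racgap1, of the centralspindlin complex, was among the highest fold changes, 3.25 (standard error 0.72, adjusted p = 0.00231) in GREEN versus CTL and 3.59 (standard error 0.72, adjusted p = 0.00309) in RED versus CTL. Kif23, the other centralspindlin subunit, averaged 3.18 ± 1.51 CPM in GREEN, 3.20 ± 1.79 CPM in RED and 0.743 ± 0.401 CPM in CTL, and its fitted value in GREEN versus RED, -0.00, was the one nearest to 0. Prc1, which bundles the midzone microtubules, Anln, the anillin of the contractile ring, and Kif20a, a midzone kinesin, rose by 2.87, 2.64 and 2.01 in GREEN versus CTL and by 3.22, 2.94 and 2.74 in RED versus CTL.

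**Figure D3:**
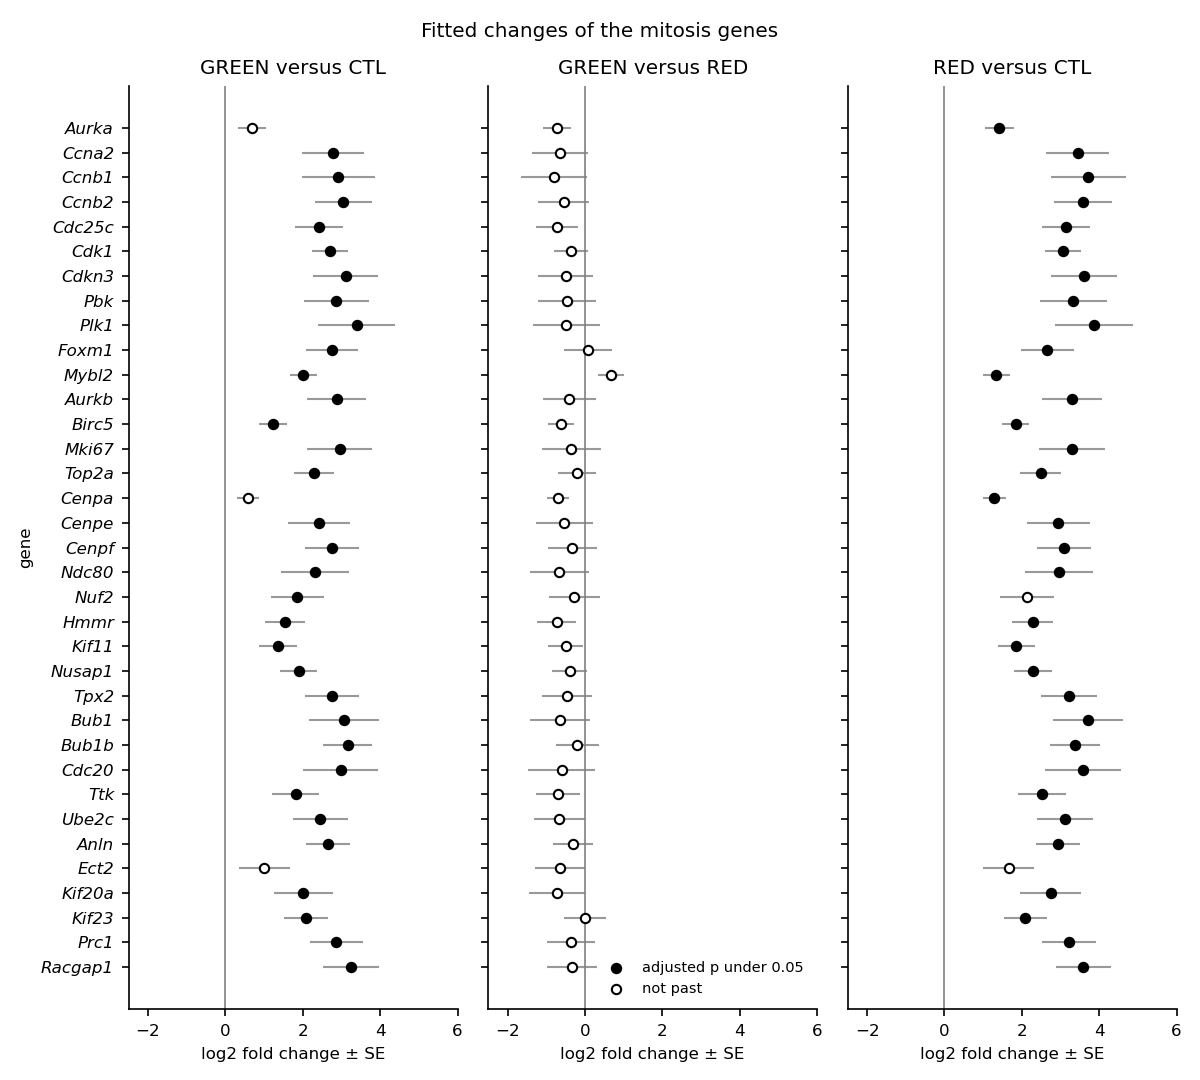
Log2 fold change ± standard error of each mitosis gene in GREEN versus CTL, GREEN versus RED and RED versus CTL, filled where the adjusted p was under 0.05. In GREEN versus RED all 35 symbols are open and 33 lie left of 0, with Mybl2 (0.68) farthest to the right.

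The number of calls also depended on the libraries used. With the libraries of experiment 1 alone 13 genes rose in GREEN versus CTL and 10 in RED versus CTL, where 32.0% and 11.8% of all genes tested rose, and with those of experiment 2 alone 9 and 4, where 15.8% and 6.73% rose. The median fold changes were 2.55 and 3.09 in experiment 1 and 2.71 and 3.13 in experiment 2. Of the 32 calls in GREEN versus CTL 23 held without any 1 of the 15 libraries, and of the 33 in RED versus CTL also 23. In RED versus CTL the calls of Ccnb1, Plk1 and Kif11 ended without RED 5, that of Kif23 without RED 4 or RED 5, that of Mybl2 without CTL 3 or CTL 4, that of Aurka without RED 4, RED 5, CTL 1 or CTL 4, and that of Cdc20 without RED 5, CTL 1, CTL 2, CTL 4 or CTL 5. The calls of Cenpe, Kif20a and Ndc80 ended without RED 3, RED 4 or RED 5 or without any CTL library but CTL 3. Their highest adjusted p was 0.0503 for Ccnb1 and 0.109 for Ndc80, and the others lay between. In GREEN versus CTL the calls of Ccnb1, Cdc20, Cenpe, Kif11, Kif20a, Ttk, Hmmr, Ndc80 and Nuf2 ended without CTL 1 and without CTL 2. Cenpe, Hmmr, Kif11, Kif20a and Ndc80 also lost the call without CTL 4 and without CTL 5, Ttk without CTL 4, and Cdc20 and Nuf2 without CTL 5. All of the 9 but Ccnb1 and Cdc20 lost it without GREEN 2 and without GREEN 4, Kif20a, Ndc80 and Nuf2 without GREEN 3, and Kif11, Kif20a, Ndc80 and Nuf2 without RED 4. Ndc80 and Kif20a lost it without RED 5 too, and Kif20a without RED 1 or RED 3, with adjusted p up to 0.111 for Ndc80 and 0.0994 for Kif20a.

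Within the module the order of levels was compared per kilobase of exon, as mean CPM per kb. Cdc20 had the highest level in GREEN (4.61) and RED (7.17), followed in GREEN by Mki67 (2.25) and Ccnb2 (2.20) and in RED by Ccnb2 (3.23), Mki67 (2.89), Kif20a (2.66) and Aurka (2.53). SDs over samples were wide, such as 3.26 CPM around a mean of 4.94 CPM for Ccnb2 in RED. For Cdc20 in RED the SD was 10.0 CPM around a mean of 13.4 CPM. Whether the order of levels held beyond that spread was not tested. In CTL the order was another: Aurka (0.934), Cenpa (0.655), Cdc20 (0.644), Ect2 (0.558) and Birc5 (0.519) were the highest. Ndc80 was the lowest in GREEN (0.104) and in CTL (0.0232), and Mybl2 in RED (0.127).

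Between the injured populations no mitosis gene passed, by edgeR's test or by DESeq2 or limma-voom. At an unadjusted p under 0.05 there was 1 gene by edgeR (Cenpa, named after its value was seen), where 31.3% of all genes tested were, 3 by DESeq2 (35.7% of all genes) and 0 by limma-voom (31.8%). Of the 35 fitted values 33 were below 0, where 51.7% of all genes tested were, with a median of -0.50 against -0.02 over all genes. Most members moved together over the samples, so the signs of single genes are not independent, here or in the pairs below. The fitted values reached from -0.79 in Ccnb1 (standard error 0.85) to 0.68 in Mybl2, and Foxm1 was the other gene above 0, at 0.09 (standard error 0.62). The standard errors, 0.29 to 0.87, were as large as most of the values. When libraries were scaled by their totals instead, 21 of the 35 lay below 0, with a median of -0.08, while the median of all genes tested moved to 0.42.

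The descriptions of the RED and GREEN libraries hold code numbers, and libraries with the same code number and experiment could be set side by side. The levels here come from all 19 libraries scaled together. In the code 2 pair, GREEN 1 and RED 2, both were low, with mean log2 CPM of 0.11 and 0.08 and a median difference over the 35 genes of -0.01 (17 genes higher in GREEN and 18 lower). In the code 3 pair, GREEN 2 and RED 3, both were high, at 2.46 and 2.72, with a median difference of -0.29 (2 higher and 33 lower). Code 4 gave GREEN 3 and RED 4 in experiment 2, at 2.00 and 2.79, with a median difference of -0.82 (1 higher and 34 lower), and GREEN 4 and RED 4 in experiment 1, at 2.07 and 2.74, with a median difference of -0.77 (5 higher and 30 lower). The code 5 pair differed most: GREEN 5 had 0.95 and RED 5 had 2.80, with a median difference of -1.91 (1 higher and 34 lower).

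Mybl2 was the only one of the 35 genes higher in GREEN in all 5 of these pairs, with log2 differences of 0.01, 0.51, 0.79, 1.04 and 0.45. RED 4 stands in 2 of the pairs, with a library of each experiment. The pairs of codes 2 to 4 in experiment 2 deviated together from their group means, with correlations over genes of 0.76, 0.67 and 0.71. Over all 15 libraries, with the experiment effect removed, GREEN 4 and RED 4 of code 4 had 0.44. In the same way GREEN 5 and RED 5 of code 5 had -0.22. The code does not mark a single animal in every case, since counts of the Y-linked genes Ddx3y and Eif2s3y summed to 6 in GREEN 5 and 3186 in RED 5. In fits with the code number as a block no member passed either, where 5.71% of all genes tested passed over all codes and 5.19% in experiment 2 alone. At an unadjusted p under 0.05 there were 11 members over all codes, where 27.5% of all genes were, and 7 in experiment 2 alone, where 19.1% were, shares near those of all genes. The medians of the members were -0.81 and -0.40.

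**Figure D4:**
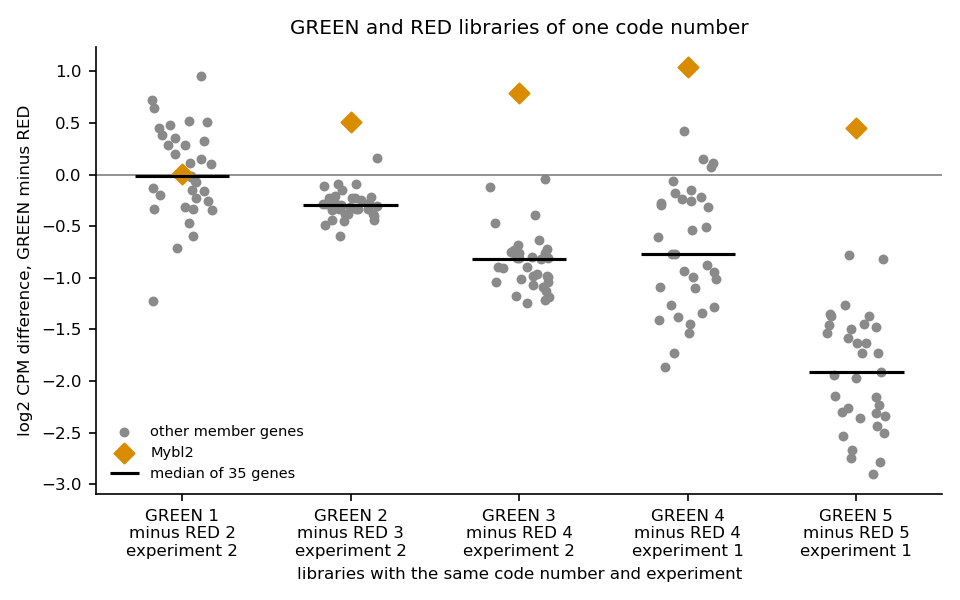
Log2 CPM difference, GREEN minus RED, of each of the 35 mitosis genes in the 5 pairs of libraries with the same code number and experiment (points), with the median of each pair (line). The median is -0.01 in the first pair and -1.91 in the last, and Mybl2 (diamond) is the only gene at or above 0 in all 5 pairs.

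CTL 5, RED 2, RED 3 and RED 4 had a library from both experiments. The experiments differed in library kit and in depth, which cannot be told apart here. RED 3 and RED 4 had mean log2 CPM of 2.72 and 2.79 in experiment 2 and 2.78 and 2.74 in experiment 1. RED 2 had 0.08 and -0.47, and CTL 5 had -0.61 and -0.94. The median difference between the libraries of one sample, experiment 2 minus experiment 1, was -0.16 in RED 3, 0.02 in RED 4, 0.65 in RED 2 and 0.38 in CTL 5, so that the samples with few counts differed more. RED 2 was low and RED 3 and RED 4 were high in both experiments.

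How closely a member followed the module was measured as the Pearson correlation of its log2 CPM with the mean of the other 34 over the 15 libraries, with the experiment effect removed. The libraries share group, depth and kit, so the values are a description. The lowest were Mybl2 (0.61), Birc5 (0.83), Aurka (0.89) and Ect2 (0.89). All other members were at 0.90 to 0.99, with Ccna2, Racgap1, Tpx2, Bub1, Cenpf, Top2a, Nusap1 and Prc1 at 0.99. Over the 10 libraries of injured liver alone Mybl2 had -0.27, and the next lowest was Kif23 at 0.79. Mybl2 had only 10 to 60 counts in each of these libraries.

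Outside all the gene lists used here, the 10 genes most like the mean of the mitosis genes over the 15 libraries were Knstrn (r = 0.993), Parpbp (0.980), Kntc1 (0.979), ENSMUSG00000111220.1 (0.978), Arhgap11a (0.976), Spdl1 (0.975), Kifc5b (0.973), Kif20b (0.970), Haspin (0.962) and Arhgef39 (0.955). Knstrn encodes a kinetochore and spindle protein, Kntc1 and Spdl1 encode kinetochore proteins, Kif20b a mitotic kinesin and Haspin a kinase of histone H3. Kifc5b has close paralogs, so its estimated counts are uncertain. Knstrn averaged 4.48 CPM in GREEN, 6.68 CPM in RED and 0.736 CPM in CTL, and its log2 fold changes were 2.59 in GREEN versus CTL and 3.17 in RED versus CTL.

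A further list of 60 mitosis genes showed the same direction with smaller sizes. Of these 46 rose and 2 fell in GREEN versus CTL (median 1.70), where 29.5% of all genes tested rose and 18.6% fell. In RED versus CTL 44 rose and none fell (median 1.78), where 14.2% of all genes rose and 1.99% fell. In GREEN versus RED 1 rose and none fell (median -0.28), where 9.68% of all genes rose. Dlgap5, a spindle protein, rose by 2.37 (standard error 0.52) in GREEN versus CTL and by 2.90 (standard error 0.53) in RED versus CTL, and Dsn1, Spc25 and Mad2l1, all of the kinetochore or its checkpoint, rose by 1.90, 1.07 and 0.65 in GREEN versus CTL and by 1.76, 1.72 and 1.03 in RED versus CTL. The genes against the trend, named after their values were seen, were Cks2, a small Cdk-binding protein, and Hjurp, the chaperone of Cenpa, which fell by 0.65 and 0.72 in GREEN versus CTL (adjusted p = 0.00857 and 0.00728). Wee1, the kinase that holds Cdk1 inactive, also named after its value was seen, rose by 1.30 in GREEN versus RED (standard error 0.31, adjusted p = 0.0155).

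The subunits of DREAM and MuvB changed little. Of 11 such genes 2 rose in GREEN versus CTL, Rbl1 by 0.85 (adjusted p = 0.0246) and E2f5, named after its value was seen, by 0.68 (adjusted p = 0.0234), and none passed in RED versus CTL or in GREEN versus RED. Their medians were 0.15, 0.05 and 0.00. Rbl1 had 0.88 in RED versus CTL, which just missed the threshold (adjusted p = 0.0515), and -0.03 in GREEN versus RED. Over all genes tested 29.5% rose in GREEN versus CTL, 16.2% passed in RED versus CTL and 12.9% passed in GREEN versus RED. Rbl2, the pocket protein p130, and E2f4 had log2 fold changes of -0.44 and 0.27 in GREEN versus CTL and -0.43 and 0.31 in RED versus CTL, which did not pass.

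Genes of S phase, the phase of DNA replication, were set beside the mitosis genes. Of 17, 10 rose and none fell in GREEN versus CTL (median 0.74), where 29.5% of all genes tested rose. In RED versus CTL 2 rose and none fell (median 0.39), where 14.2% of all genes tested rose. The count in RED versus CTL was near the share of all genes. Mcm6, of the replicative helicase, rose by 1.94 (standard error 0.40) in GREEN versus CTL and by 1.23 (standard error 0.39) in RED versus CTL, and Cdc6, which loads the helicase, by 2.22 (standard error 0.65) and 2.01 (standard error 0.64). Mcm3 rose by 1.20 in GREEN versus CTL, and its value of 1.18 in RED versus CTL did not pass (adjusted p = 0.0614). In GREEN versus RED Pola1, of the polymerase that starts new strands, rose by 0.75 (adjusted p = 0.0297, named after its value was seen), and the median was 0.31, where that of the mitosis genes was -0.50; the difference between the lists was not tested. In the plot of levels by list, CTL 5 had the highest S phase level of the CTL samples (mean log2 CPM 2.36 with the experiment effect removed, others 1.65 to 1.79) and a mitosis level like that of CTL 1.

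Markers of endothelial cells, of stellate cells and fibroblasts, and of macrophages were higher in injured than in healthy liver, as the mitosis genes were. The part of these cells in the result was not tested. All 10 endothelial and all 10 stellate cell and fibroblast markers rose in GREEN versus CTL and in RED versus CTL. Of 10 macrophage markers 9 rose in GREEN versus CTL and 10 in RED versus CTL. Over all genes tested 29.5% rose in GREEN versus CTL and 14.2% in RED versus CTL. The summed endothelial level was 293 to 681 CPM in GREEN, 363 to 1820 CPM in RED and 40.2 to 136 CPM in CTL. The stellate and fibroblast level was 837 to 2640 CPM in GREEN, 304 to 1680 CPM in RED and 34.1 to 76.1 CPM in CTL, and the macrophage level 149 to 574 CPM in GREEN, 118 to 1550 CPM in RED and 36.0 to 102 CPM in CTL. No endothelial or macrophage marker was at 0 in any library, and 1 stellate marker was at 0 in CTL 1 and in CTL 4. Of the RED samples RED 1 and RED 2, with low mitosis genes, had the lowest endothelial sums (363 and 403 CPM) and stellate sums (366 and 304 CPM), against 756 to 1820 CPM and 548 to 1680 CPM in RED 3 to RED 5; the macrophage sums were 594 CPM in RED 1, 118 CPM in RED 2 and 315, 854 and 1550 CPM in RED 3 to RED 5. In GREEN 1 to 5 the mitosis sums were 51.7, 276, 201, 189 and 90.8 CPM, beside endothelial sums of 450, 497, 681, 681 and 293 CPM, stellate sums of 957, 837, 1400, 1860 and 2640 CPM and macrophage sums of 149, 210, 410, 574 and 421 CPM. GREEN 3 and GREEN 4 were high for mitosis genes and highest for endothelial markers, and GREEN 5 was low for both. GREEN 1, with the lowest mitosis sum, was not the lowest for endothelial markers, at 450 CPM. GREEN 2, with the highest mitosis sum, had the lowest stellate sum.

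Bile duct markers differed between the injured groups. All 10 rose in GREEN versus CTL, 1 rose in RED versus CTL (Krt19), and 9 of 10 rose in GREEN versus RED. Over all genes tested 29.5%, 14.2% and 9.68% rose in these comparisons. The bile duct markers summed to 530, 743, 3010, 8260 and 4230 CPM in GREEN 1 to 5, against 88.3 to 435 CPM in RED. In CTL they summed to 28.7 to 315 CPM, with 3 to 5 of the 10 at 0 in each library. GREEN 2, with a mitosis sum of 276 CPM, and GREEN 1, with 51.7 CPM, were the GREEN samples with the lowest bile duct sums, and GREEN 4, with the highest bile duct sum, had a mitosis sum of 189 CPM. Hepatocyte markers fell in 8 of 10 cases in GREEN versus CTL and in 1 of 10 in RED versus CTL. Over all genes tested 18.6% and 1.99% fell. Of the neutrophil markers 6 of 8 tested rose in GREEN versus CTL and 6 in RED versus CTL, of the lymphocyte markers 2 and 1 of 4, and of the erythroid markers 0 of 7 in both. Sums of these lists were at most 48.6 CPM for neutrophil and 36.6 CPM for lymphocyte markers in any library.

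**Figure D5:**
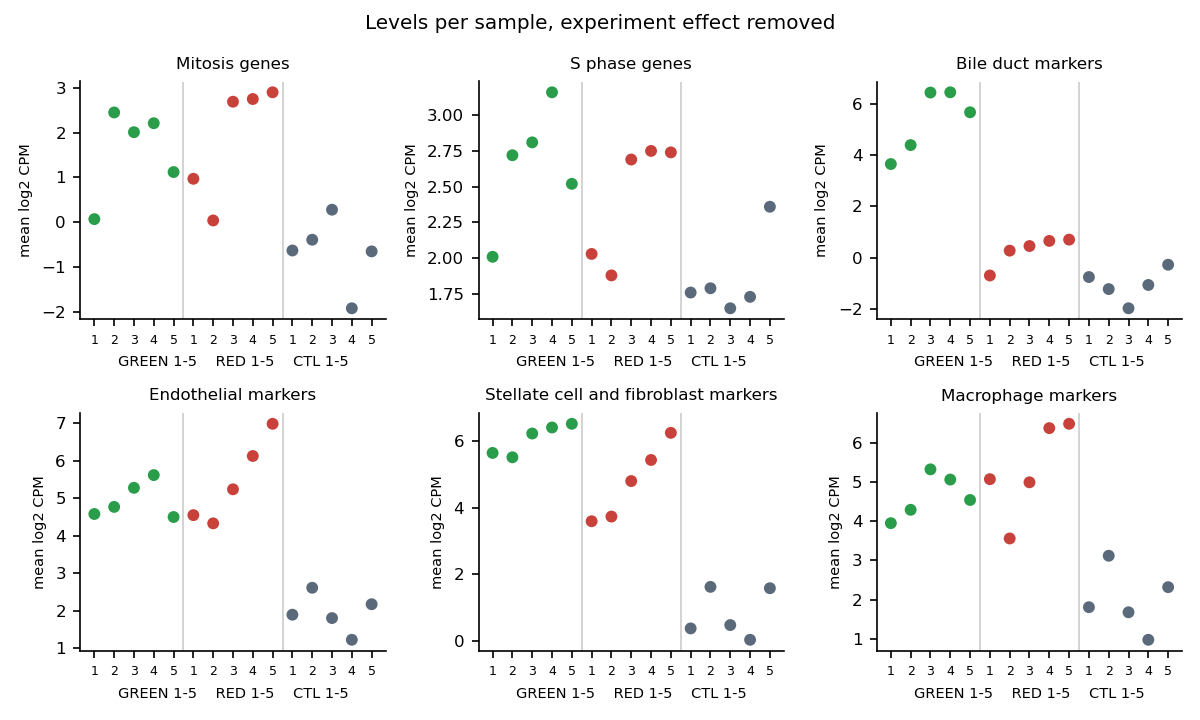
Mean log2 CPM per sample, with the experiment effect removed, of the mitosis genes, the S phase genes and the markers of 4 other cell types, in GREEN, RED and CTL samples 1 to 5 from left to right. GREEN is far above RED for bile duct markers, while for the mitosis genes GREEN and RED overlap, and RED 1 and RED 2 are the lowest RED samples for mitosis genes, endothelial markers and stellate markers.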

How the data were processed

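The deposited tables hold the authors' estimated counts per gene for 19 libraries of 15 samples, not normalized, with 33.3% to 47.1% of the values of a library not whole. They were made with kallisto 0.43.1 on build GRCm38, per the submitters' processing notes. For the annotation, the use of strand and the RNA extraction, nothing is given in the sources used here. Such estimates split reads among similar sequences, and reads of antisense genes may be included. Per the labels, each library started from 150 ng of total RNA. Symbols and positions came from GENCODE M21 on GRCm38 (98.8% of identifiers found).

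Counts were rounded. CTL 5, RED 2, RED 3 and RED 4, with a library in each experiment, entered with that of experiment 2. Genes passing filterByExpr (16387) were scaled by TMM and tested with edgeR 4.0.16 (quasi-likelihood F test, R 4.3.3) with group and experiment as terms, all 3 groups in 1 fit, Benjamini-Hochberg adjustment over all genes and a threshold of 0.05. Standard errors are the log2 fold change over the square root of F. CPM use the TMM factors, and log2 CPM a prior count of 2. The code was tested on simulated counts. The design text calls the samples biological replicates, and the p-values measure the spread between them.

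Alternatives were DESeq2 1.42.0, limma-voom (limma 3.58.1), other scalings, filters and libraries, each experiment alone, each library left out, blocks by title and code number, and a term for Y-linked counts chosen after seeing the data. Same-numbered titles deviated together in some pairs only (for CTL and RED -0.11, -0.09, 0.42, 0.01 and 0.35) and were not taken to pair samples. Code numbers were taken to pair GREEN and RED samples, since all 3 pairs of experiment 2 deviated together. Over all 15 libraries, GREEN 4 and RED 4 of one code had 0.44, and GREEN 5 and RED 5 of one code had -0.22. With unlike codes, GREEN 1 and RED 1 had 0.58, GREEN 2 and RED 2 had -0.10, and GREEN 3 and RED 3 had -0.20. The pairing by code is therefore uncertain. GREEN 3 and GREEN 4 share a code number. They differed by a root mean square of 0.83 log2 units, against 0.40 to 0.46 for libraries of one sample. They were kept as 2 samples. That distance does not show whether they came from different animals, and the p-values treat them as independent. The mitosis genes and the other lists were chosen with earlier results of these data known. All members are named; of each other list up to 4 genes with the smallest p in RED versus CTL are named, apart from those said to be named after their values were seen.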

Additional observations from a re-analysis of the deposited data

Results flagged for a closer look

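In groups of 5 samples, a sample was singled out when its gap to the nearest other sample was over 0.71 of the group's range (Dixon's 95% critical value). This was so in 7 of 105 combinations of gene and group, all 7 in CTL. Over all groups together that share is not far from the about 1 in 20 that chance gives for independent values. In CTL alone it was 7 of the 35 genes, a larger share. The 7 fell on CTL 3 and CTL 4, and genes that move together are not independent. CTL 3 was high for Ccnb1 (2.09 CPM, others 0.114 to 0.531), Ccna2 (1.61 CPM, others 0.171 to 0.546), Cdc20 (3.74 CPM, others 0.342 to 0.738), Cenpe (1.61 CPM, others 0.413 to 0.572) and Ndc80 (0.472 CPM, others 0.0520 to 0.118). CTL 4 was low for Top2a (0.627 CPM, others 2.42 to 3.03) and Cenpf (0.0570 CPM, others 1.06 to 1.36). Both are libraries of experiment 1, the only ones of CTL in the fit. CTL 3 was the highest CTL sample for 21 of the 35 mitosis genes and CTL 4 the lowest for 31. Without CTL 3 the count of mitosis genes that rose was 32 in GREEN versus CTL and 34 in RED versus CTL, and without CTL 4 it was 26 and 27.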

How the results depend on the processing

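Depth limits the scarcest members, since 3 counts were 0.0555 to 0.171 CPM per library and 6 genes had 0 counts in CTL 4. The direction of the median fold change was kept under every alternative run, with ranges over the libraries left out of 2.40 to 2.86 in GREEN versus CTL, 2.72 to 3.37 in RED versus CTL and -0.83 to -0.21 in GREEN versus RED. Counts of genes that rose were 23 to 32 and 24 to 34 in the first 2 comparisons with 1 library left out; none fell. In GREEN versus CTL the counts were 17 by limma-voom, 13 in experiment 1 alone and 9 in experiment 2 alone, and in RED versus CTL 10, 10 and 4, with medians of 2.46, 2.55 and 2.71 and of 2.75, 3.09 and 3.13; the smaller experiments have fewer samples, and for limma-voom the cause was not tested. The fits of each experiment alone share the samples CTL 5, RED 2, RED 3 and RED 4 and are not independent. By DESeq2 32 and 35 rose, and with a term for Y-linked counts 32 and 34.

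In GREEN versus RED the count that rose was 0 throughout, and 1 gene fell with the experiment 1 library of samples with 2 and without RED 2 (0 to 1 over the libraries left out). Both times it was the value of GREEN versus RED, Cenpa (adjusted p = 0.0465 and 0.0482); the cause was not tested. Scaled by library totals, 12 of the 35 values in GREEN versus RED changed sign, among them Mki67 (0.05), Cdk1 (0.06) and Kif23 (0.43). That scaling moved the median of all genes tested to 0.83 in GREEN versus CTL and 0.33 in RED versus CTL, beside 3.35 and 3.36 for the mitosis genes. The value of GREEN versus RED, Foxm1, changed sign in experiment 2 alone (-0.11), with the block by code number (-0.18) and with 1 library left out (-0.26 to 0.35). For GREEN versus RED, Kif23, the value of -0.00 turned positive without a filter (0.00), with a filter of 1 CPM (0.02), by limma-voom (0.02), in experiment 1 alone (0.38), with the experiment 1 library of samples with 2 (0.03), with the block by title number (0.05) and with the Y-linked term (0.01), and was -0.35 to 0.44 with 1 library left out. With a replicate block by title number, 27 rose in GREEN versus CTL, 28 in RED versus CTL and 0 in GREEN versus RED. Blocking by code number changed no call in GREEN versus RED.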
